A study of Mus musculus with 13 samples.

Results

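The genes described here are 10 markers of the progenitor compartments of the hair follicle and sebaceous gland, *Lgr5*, *Lgr6*, *Lrig1*, *Sox9*, *Lhx2*, *Cd34*, *Nfatc1*, *Tbx1*, *Prdm1* and *Trp63*. They were listed by name, with no threshold on a measured value but with earlier results of these data known, and each symbol matched 1 of the 49315 gene identifiers counted. The gene counts come from full-thickness back skin at P4 of 3 WT mice and 3 littermate *K14Cre+Kctd1fl/flKctd15fl/fl* mice, labelled DKO, with 1 library per mouse. *K14Cre* expresses Cre recombinase from the promoter of keratin 14, a keratin of basal keratinocytes, so recombination is directed to keratinocytes while the dermis, fat and muscle of the same samples are not targeted. The labels give the controls as WT and name no Cre or floxed allele for them. The series also holds 7 libraries of epidermis at 3 weeks of age, 4 of DKO mice and 3 of *K14Cre+Kctd15fl/fl* mice, in which every gene has a count of 0 in the files used here. WT and DKO therefore refer to P4 skin throughout.

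Hair follicles form during embryogenesis and keep dividing progenitors in separate zones. The bulge and the hair germ beneath it hold cells that rebuild the follicle in each hair cycle. The isthmus and junctional zone above the bulge supply the upper follicle and the sebaceous gland. LGR5 and LGR6 are receptors for R-spondins, secreted proteins that strengthen Wnt signaling, and mark cells of the hair germ and bulge and of the isthmus. LRIG1, a transmembrane inhibitor of ERBB receptors, marks the junctional zone. SOX9, LHX2, NFATC1 and TBX1 are transcription factors of the bulge and its precursors. CD34 is a sialomucin of adult bulge cells that is also made by endothelium, dermal fibroblasts and blood progenitors. PRDM1 (BLIMP1) is a transcriptional repressor found in cells of the sebaceous gland and of the outer epidermis. p63, the product of *Trp63*, is the transcription factor that maintains stratified epithelia. At P4 mouse back skin is still in follicle morphogenesis, before the adult bulge is complete. Within the follicle these genes therefore mark a developing structure rather than resting stem cells.

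The genes are given with their GRCm38 positions, except *Nfatc1*, whose position is given with its values. On the minus strand are *Lgr6* (ENSMUSG00000042793, chromosome 1, 134983301 to 135105276), *Lrig1* (ENSMUSG00000030029, chromosome 6, 94604529 to 94700158), *Lgr5* (ENSMUSG00000020140, chromosome 10, 115450311 to 115587780) and *Prdm1* (ENSMUSG00000038151, chromosome 10, 44437177 to 44528501). *Tbx1* (ENSMUSG00000009097, chromosome 16, 18581713 to 18586969) is on the minus strand as well. On the plus strand are *Cd34* (ENSMUSG00000016494, chromosome 1, 194938819 to 194961279), *Lhx2* (ENSMUSG00000000247, chromosome 2, 38339281 to 38369733), *Sox9* (ENSMUSG00000000567, chromosome 11, 112782224 to 112787760) and *Trp63* (ENSMUSG00000022510, chromosome 16, 25683763 to 25892102). The counted exons overlap those of another gene in *Lrig1*, by 144 bp shared with *Slc25a26* on the other strand (2.58% of the counted length), and in *Cd34*, by 148 bp shared with *Gm16897* on the other strand (2.03%). Whether counting used the strand is not given in the sources used here. *Trp63* has promoters that give proteins with and without the transactivating amino terminus, and gene counts cannot tell these forms apart.

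KCTD1 and KCTD15 inhibit the transcription factor AP-2α, so the windows of 250 bases before RefSeq transcript starts (GRCm38.p6) were searched for the AP-2 motif GCCNNNGGC, which reads the same on both strands. Of all 32851 windows, 13.7% held it. Windows were found for 6 of the 10 genes, 8 windows in all, and 2 held the motif, 1 of *Lrig1* and 1 of the 2 windows of *Lhx2*. These sites are shown with the motif in capitals, together with the part of the *Lgr6* window that lies outside every annotated transcript of the gene, since *Lgr6* was the marker whose WT and DKO values did not overlap. The *Lgr6* stretch is chr1:135105375-135105526 on the minus strand, the *Lrig1* site chr6:94700191-94700219 on the minus strand, and the *Lhx2* site chr2:38351119-38351148 on the plus strand, before a start inside the gene, where 2 overlapping matches begin 182 and 175 bases before the start. The *Lrig1* site lies beyond the counted extent of that gene but within its RefSeq extent, which ends at 94700298.
*Lgr6* promoter: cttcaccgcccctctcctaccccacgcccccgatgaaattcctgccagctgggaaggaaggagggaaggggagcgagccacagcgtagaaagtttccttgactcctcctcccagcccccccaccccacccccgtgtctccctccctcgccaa
*Lrig1* site: ccggggcgggGCCTGGGGCcgcggggctg
*Lhx2* site: cggctggGCCCGCGGCCGTCGGCtcctcct
A match is a description of letters and not evidence of binding.

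The 6 P4 libraries held between 11263863 and 17643043 counts on genes, and the raw counts of the 10 markers lay between 597 and 9308, far above the 3 counts taken as a floor. Library sizes were adjusted with edgeR's TMM factors, and normalized counts refer to counts on that scale. A gene was called when its adjusted p-value in edgeR's quasi-likelihood test was under 0.05 and its absolute log2 fold change was over 1, and 14 of 20168 genes tested were called, or 0.0694%. The targeted genes had 745 ± 15.5 (WT) and 1321 ± 189 (DKO) normalized counts for *Kctd15* and 432 ± 19.0 and 742 ± 240 for *Kctd1* (SD, n = 3). Both were higher in each DKO library than in each WT library, with adjusted p-values of 0.107 and 0.342 in edgeR. These counts take in exons outside the floxed ones, so they do not check the labels. Basal keratinocyte genes, the cells in which *K14Cre* acts, summed to at least 2383 CPM, counts relative to the effective library size, in each library.

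All 10 markers had enough counts for a test, and 0 were called in edgeR, where 0.0397% of all genes were called as higher and 0.0298% as lower in DKO (0.0694% together). With DESeq2, which called 149 of 18006 genes (0.828%), 0 markers had an adjusted p-value under 0.05, where 1.16% of genes did, and in edgeR 1 had an unadjusted p-value under 0.05, where 7.5% of all genes did. The median log2 fold change of the markers was 0.03, beside 0.02 over all genes tested. Of the 10, 7 had an estimate above 0 and 3 below it, where 47.1% of all genes were below 0, and 2 of the 7, *Lgr5* and *Trp63*, were within 0.01 of 0. The 95% intervals of the 10 log2 fold changes ran from -0.51 at the lowest to 0.83 at the highest, so a change of 2-fold in either direction lay outside each of them. In 1 marker, *Lgr6*, the 3 DKO libraries did not overlap the 3 WT libraries. Over all genes tested, 13.2% had groups that did not overlap, 7.24% with DKO higher and 5.96% with DKO lower.

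**Figure D1:**
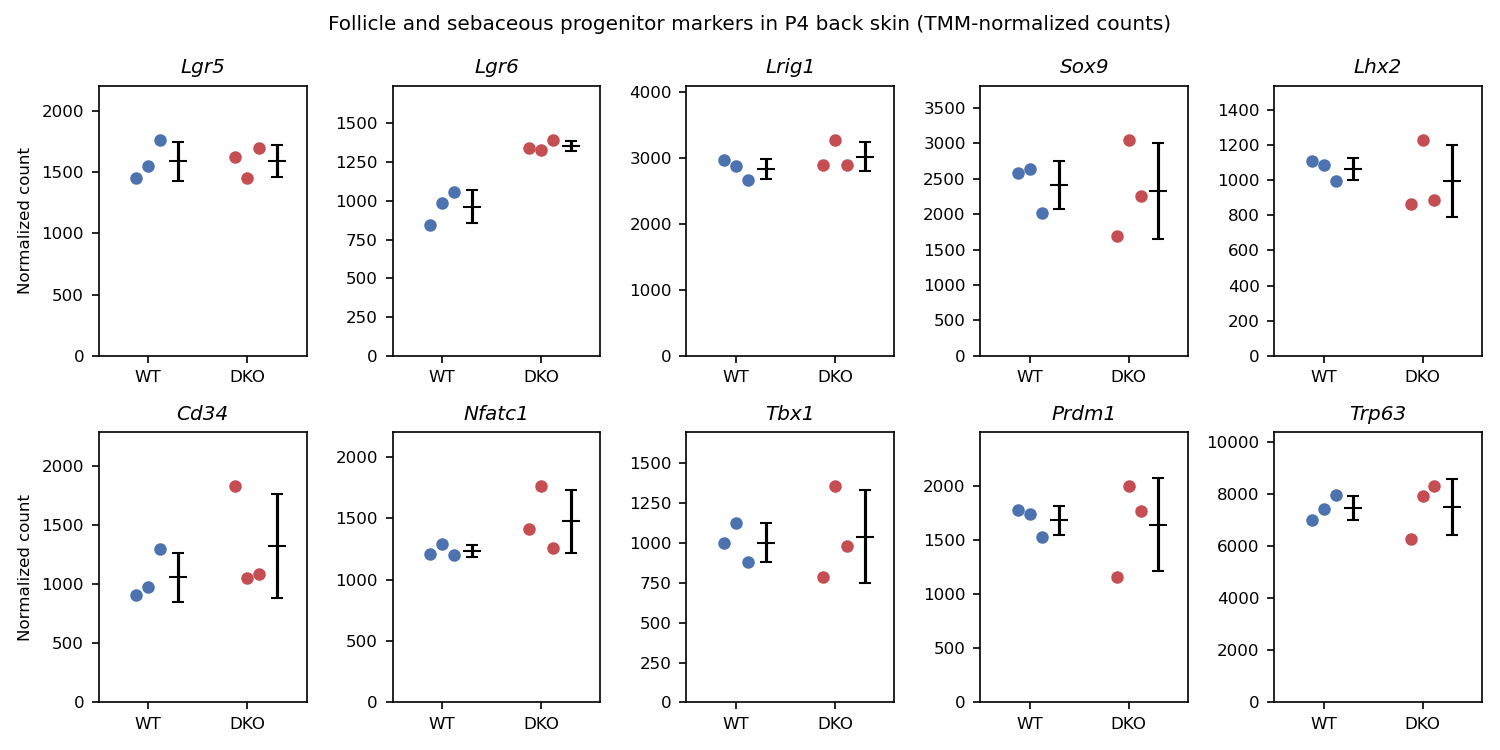
TMM-normalized counts (y axis, from 0) of each marker in the 3 WT (blue) and 3 DKO (red) libraries, with the mean and SD of each group in black and libraries in replicate order from left to right. In *Lgr6* the DKO values of 1329 to 1393 all lie above the WT values of 847 to 1054, and in the other 9 genes the groups overlap.

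*Lgr6*, the R-spondin receptor of the isthmus, had the largest difference. WT replicates 1 to 3 held 847, 985 and 1054 normalized counts of *Lgr6*, and the DKO replicates 1339.5, 1329 and 1393, each in replicate order. The lowest DKO library lay above the highest WT library, and the DKO libraries lay closer together than the WT libraries. The means were 962 ± 105 and 1354 ± 34.0 (SD, n = 3), a DKO level 40.7% higher. On the log2 scale the fold change was 0.49 (SE 0.13), with a 95% interval from 0.20 to 0.78, or from 1.15-fold to 1.72-fold. Its adjusted p-value was 0.302 in edgeR and 0.143 in DESeq2, and the difference did not pass the test. With each library left out in turn the log2 fold change stayed between 0.40 and 0.55, and the adjusted p-value in edgeR lay between 0.148 and 1.00. Mice of both genotypes share the number 47347 or 40972 in their labels. WT replicate 3 and DKO replicate 1 are the pair numbered 40972. The difference in log2 CPM was 0.57 among the 4 mice numbered 47347 and 0.35 between that pair.

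*Lgr5*, its paralog in the hair germ and bulge, showed no such difference. The normalized counts of *Lgr5* were 1453, 1547 and 1763 in WT and 1624, 1449 and 1700.2 in DKO, and the groups covered nearly the same range. Its means were 1588 ± 159 and 1591 ± 129 (SD, n = 3), and the 95% interval of its log2 fold change ran from -0.29 to 0.29. The ratio of *Lgr6* to *Lgr5* counts, which does not depend on how libraries are scaled, was 0.583, 0.636 and 0.598 in WT and 0.825, 0.917 and 0.819 in DKO. Each DKO library therefore had a higher ratio than each WT library. This ratio was formed after the values of both genes were seen, so it is given without a test.

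*Lrig1*, the junctional zone marker, had normalized counts of 2973, 2878 and 2675 in WT and 2897, 3277 and 2893 in DKO. Only DKO replicate 2 lay above the WT range, and the means of 2842 ± 152 and 3022 ± 221 differed by 6.34%. The 95% interval of the log2 fold change was -0.18 to 0.35. *Nfatc1* (ENSMUSG00000033016, chromosome 18, 80606205 to 80713071, minus strand) encodes a factor of bulge quiescence that endothelial cells also express. It had 1208, 1287 and 1199 normalized counts in WT and 1409, 1759 and 1261 in DKO. DKO replicate 3 lay within the WT range, and the other DKO libraries above it. The log2 fold change of *Nfatc1* was 0.26 (SE 0.15, adjusted p = 0.791 in edgeR), and the difference in log2 CPM was 0.26 and 0.23 within the mice numbered 47347 and 40972.

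*Cd34* had 906, 974 and 1295 normalized counts in WT and 1826, 1049 and 1083 in DKO. DKO replicate 1 stood apart, and the other DKO libraries lay inside the WT range. The highest WT library was replicate 3, numbered 40972 like DKO replicate 1. The log2 fold change of 0.32 (SE 0.23, adjusted p = 0.892 in edgeR) became -0.0030 without DKO replicate 1. The difference in log2 CPM was 0.18 among the mice numbered 47347 and 0.49 between the pair numbered 40972. The summed level of 8 endothelial markers, whose cells also make CD34 and NFATC1, was 280 to 294 CPM in WT and 254 to 359 CPM in DKO, with the highest value in DKO replicate 1. That of 8 dermal fibroblast markers was 14453 to 17754 CPM in WT and 16507 to 24632 CPM in DKO, with the highest value in DKO replicate 2. Of these markers *Col1a1*, which held the most counts, and *Col1a2* were highest in DKO replicate 2, and all the others in DKO replicate 1. Each of these 16 markers was detected in each library, and their part in the values of *Cd34* and *Nfatc1* was not tested. In whole skin, fewer cells of a type and less RNA per cell cannot be told apart.

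The transcription factors *Sox9*, *Lhx2*, *Tbx1* and *Prdm1* differed more between libraries than between genotypes. *Sox9*, a factor of the outer root sheath and bulge precursors, had 2574, 2632 and 2016 normalized counts in WT and 1694, 3045 and 2248 in DKO. *Tbx1* had 998, 1127 and 879 in WT and 785, 1354 and 982 in DKO. Both genes were lowest in DKO replicate 1 and highest in DKO replicate 2, with DKO replicate 3 within the WT range. *Lhx2*, which maintains bulge and hair germ identity, had 1109.9, 1087 and 996 in WT and 862, 1229 and 889.9 in DKO. *Prdm1* had 1777, 1745 and 1531 in WT and 1163, 1995 and 1769 in DKO. These genes again had their lowest value in DKO replicate 1 and their highest in DKO replicate 2, although DKO replicate 3 was also below the WT range for *Lhx2*. Within WT, *Sox9*, *Tbx1*, *Lhx2* and *Prdm1* were all lowest in replicate 3, numbered 40972 like DKO replicate 1. Their log2 fold changes were -0.05 for *Sox9*, 0.05 for *Tbx1*, -0.10 for *Lhx2* and -0.04 for *Prdm1*, with 95% intervals that together ran from -0.51 to 0.50.

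Leaving out DKO replicate 1 moved *Sox9* to 0.12 and *Prdm1* to 0.14 on the log2 scale, and leaving out DKO replicate 2 moved *Tbx1* to -0.18 and *Lhx2* to -0.28. The lowest adjusted p-value of the 4 genes over all settings run was 0.332 in edgeR, that of *Lhx2* without DKO replicate 2. Among the mice numbered 47347 the differences in log2 CPM were 0.0073 for *Sox9*, 0.12 for *Tbx1*, -0.07 for *Lhx2* and 0.09 for *Prdm1*. Between the pair numbered 40972 they were -0.25, -0.16, -0.21 and -0.40 in the same order, and *Lhx2* was the only 1 of the 4 with the same sign in both.

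Some lists of other follicle genes also set DKO replicates 1 and 2 apart, and others did not. The summed level of 10 hair matrix genes, relative to the WT mean on the log2 scale, was 0.02, 0.07 and -0.10 in the WT libraries and -0.55, 0.41 and -0.07 in the DKO libraries, in replicate order. That of 7 isthmus and infundibulum genes was 0.17, 0.14 and -0.38 in WT and -0.72, 0.74 and -0.08 in DKO. In both sums the lowest WT library was replicate 3, numbered 40972 like DKO replicate 1. The part of the label number in this pattern was not tested. For *Sox9* the same measure was 0.10, 0.13 and -0.26 in WT and -0.51, 0.34 and -0.10 in DKO. The summed level of 13 bulge and hair germ genes did not follow that pattern, at 0.02, -0.07 and 0.05 in WT and 0.12, 0.23 and 0.07 in DKO. DKO replicate 1 was above the 3 WT libraries, but this sum leaned on *Postn*, which held the most counts of the list. *Postn* had 11509 to 13300 normalized counts in WT and 16741, 13008 and 14509 in DKO. *Foxc1*, *Cdh3* and *Barx2* of the list were lowest in DKO replicate 1 and highest in DKO replicate 2, and others of the list were not. Within each genotype *Sox9* ranked the libraries as the hair matrix sum did. *Lgr6*, at -0.18, 0.03 and 0.13 in WT and 0.48, 0.47 and 0.53 in DKO by this measure, did not rank them as the isthmus and infundibulum sum did. Skeletal muscle genes went another way, at 1.69 in DKO replicate 1, 0.54 in DKO replicate 2 and 0.63 in DKO replicate 3, with WT between -0.10 and 0.11, and adipocyte genes were highest in DKO replicate 1, at 0.98. The part of tissue content in the marker values was not tested. Over the 6 libraries Pearson's r of log2 CPM was 0.96 between *Sox9* and *Tbx1*, 0.94 between *Sox9* and *Prdm1* and -0.91 between *Cd34* and *Prdm1*. These coefficients describe 6 points that share libraries and scaling, and DKO replicates 1 and 2 weigh most in them.

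**Figure D2:**
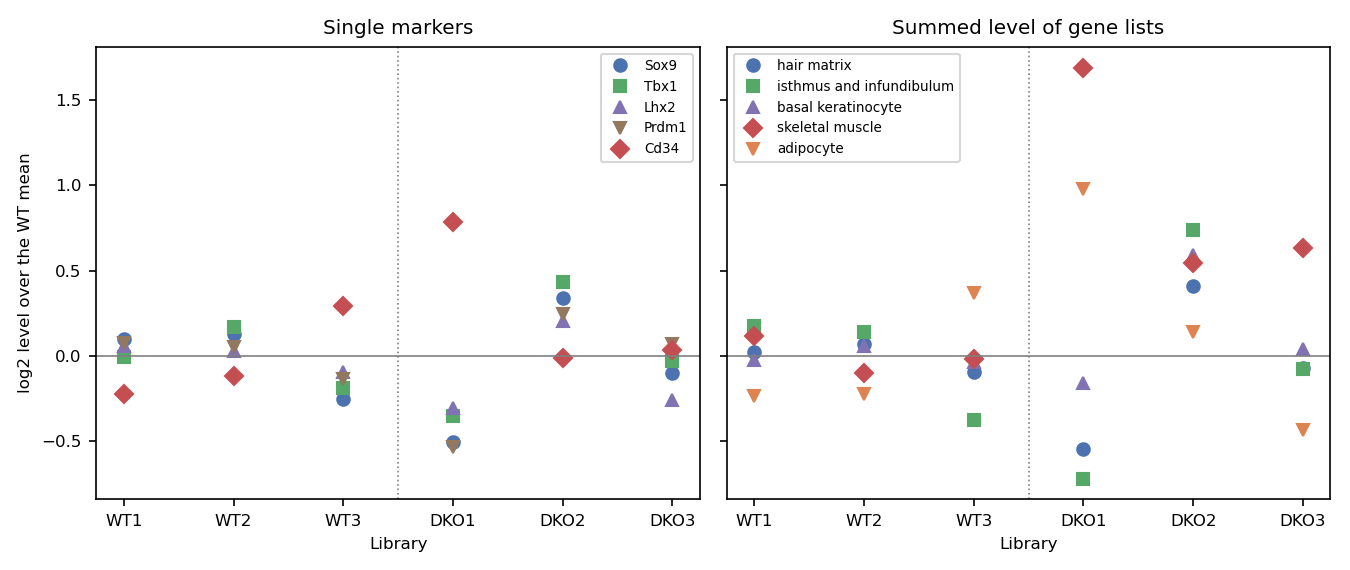
Level of 5 markers (left) and summed level of 5 gene lists (right) in each of the 6 libraries, as log2 over the WT mean (y axis). *Sox9*, *Tbx1*, *Lhx2* and *Prdm1* are low in DKO replicate 1 and high in DKO replicate 2, as are the hair matrix and the isthmus and infundibulum lists, while *Cd34* reaches 0.79 and skeletal muscle 1.69 in DKO replicate 1.

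*Trp63*, which basal keratinocytes of epidermis and follicle share, had 7027, 7451 and 7963 normalized counts in WT and 6293, 7929 and 8299 in DKO. DKO replicate 1 was below and DKO replicate 3 above the WT range. The means of 7480.2 ± 469 and 7507 ± 1068 (SD, n = 3) differed by 0.357%, and the 95% interval of the log2 fold change was -0.32 to 0.33. The coefficient of variation among DKO libraries was 14.2%, against 6.27% among WT libraries. In 8 of the 10 markers it was larger in DKO than in WT, the exceptions being *Lgr5* and *Lgr6*. Over all genes tested, 74% had a larger coefficient of variation in DKO. DKO replicate 1 was the lowest of the 6 libraries in 5 markers and DKO replicate 2 the highest in 6, beside 23.6% and 29.4% of all genes.

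**Figure D3:**
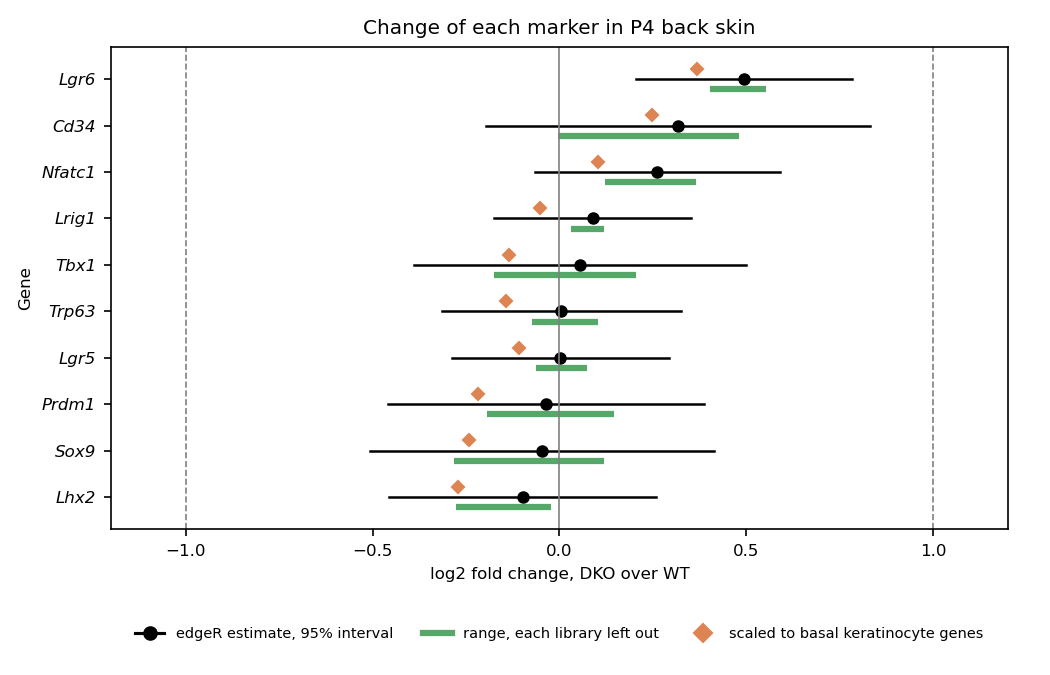
Log2 fold change of DKO over WT (x axis) for each marker in edgeR with its 95% interval in black, the range when each library is left out in green, and the estimate with libraries scaled to basal keratinocyte genes as an orange diamond. Dashed lines mark 2-fold changes, which none of the 10 intervals reaches, and the interval of *Lgr6*, from 0.20 to 0.78, is the one that does not include 0.

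Levels were compared between genes as normalized counts per kilobase of counted length. In WT skin *Trp63* was highest, at 891 ± 55.9 (SD, n = 3), and did not overlap the next gene. *Sox9* (582 ± 82.2), *Tbx1* (564 ± 69.7) and *Lrig1* (509 ± 27.3) followed, and their ranges over the WT libraries overlapped one another. *Prdm1* at 307 ± 24.3 and *Lhx2* at 242 ± 13.7 each stood apart from their neighbors in that order. The remaining genes, *Nfatc1* (166 ± 6.53), *Lgr5* (155 ± 15.5), *Cd34* (145 ± 28.5) and *Lgr6* (140.4 ± 15.4), had overlapping ranges between neighbors. In DKO skin *Trp63* was again highest, at 895 ± 127, with a lowest library of 749.9, below the highest library of *Tbx1* at 762. *Tbx1* and *Sox9* changed places, and *Lgr6* stood at 198 ± 4.97, level with *Nfatc1* at 199 ± 34.4 and above *Lgr5* at 155 ± 12.5, whose range it did not overlap. The per-length level of *Tbx1* rests on 1777 counted bases between 18581713 and 18586969, while GENCODE M21 gives the gene from 18580979 to 18590671.

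**Figure D4:**
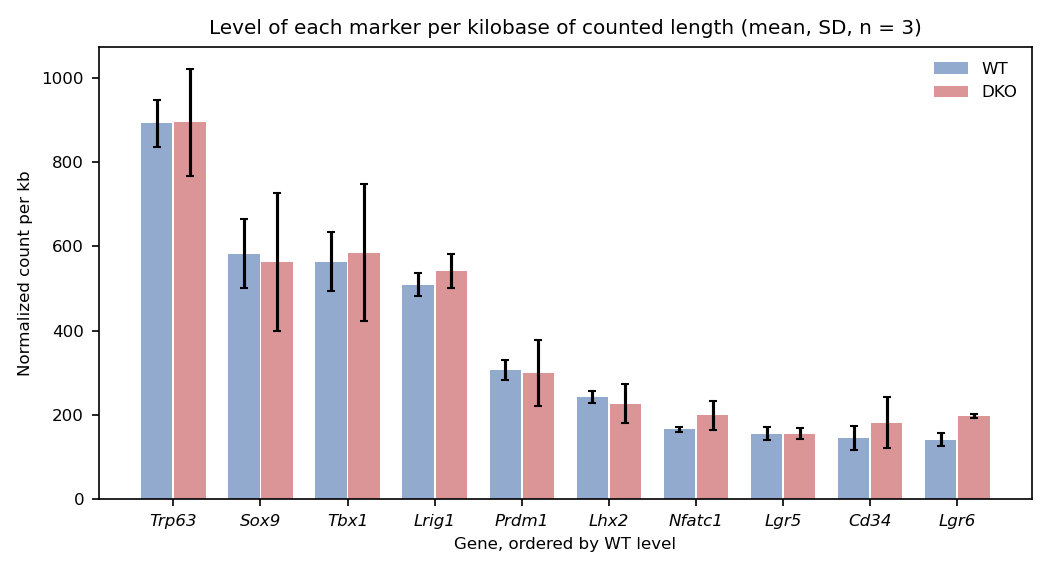
Mean normalized count per kilobase of counted length (y axis, from 0) of each marker in WT (blue) and DKO (red) skin, with bars for the SD over 3 libraries and genes in the order of their WT level. *Trp63* is highest at 891 in WT and 895 in DKO, and *Lgr6*, last in WT at 140.4, reaches 198 in DKO.

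The study reports that P4 DKO skin was thinner, with shorter and abnormal hair follicles, so the shares of tissues may differ by genotype as well as between pieces. Since Cre acts in keratinocytes and the share of dermis and muscle can vary between pieces of skin, each marker was also set against the summed level of 7 basal keratinocyte genes (*Krt5*, *Krt14*, *Itga6*, *Itgb4*, *Col17a1*, *Lamb3* and *Itga3*) in its own library. That sum was 2596 to 2768 CPM in WT and 2383, 4008 and 2734.5 CPM in the DKO libraries in replicate order. On this scale the *Lgr6* difference in the mean log2 ratio was 0.34 and its groups overlapped, with DKO replicate 2 at -5.52 among WT values of -5.55 to -5.22 (exact two-sided permutation test, p = 0.3). Of the 10 markers 1 had groups that did not overlap in this ratio, where 11.9% of all genes tested did. It was *Lhx2*, at -5.16, -5.27 and -5.31 in WT and -5.39, -5.63 and -5.54 in DKO. Its difference of -0.27 had p = 0.1 in the exact permutation test, the smallest that 3 libraries against 3 allow, and 10 such ratios were compared. Without *Krt5* and *Krt14* in the sum, the differences were 0.35 for *Lgr6* (p = 0.2, exact permutation test) and -0.26 for *Lhx2* (p = 0.1, exact permutation test). Scaling whole libraries by these genes moved the median log2 fold change of all genes to -0.12, and 3 of the 10 markers were then above 0.

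Other genes of the same compartments were read from lists that share no gene with the 10. Among 13 bulge and hair germ genes 0 were called, 10 had estimates above 0 and 3 below, and the median log2 fold change was 0.22, where that of all genes tested was 0.02. *Npnt*, which encodes the matrix protein nephronectin, had 581 to 666 normalized counts in WT and 782 to 939.9 in DKO (log2 fold change 0.45, adjusted p = 0.407 in edgeR). *Fgf18*, a growth factor of the resting bulge, had 9.34 to 12.2 and 20.9 to 26.3 normalized counts (1.12, adjusted p = 0.424 in edgeR). *Krt15*, a bulge keratin, and *Runx1*, a transcription factor of follicle progenitors, were named after their values were seen. *Krt15* was 2278, 2428 and 3914 in WT and 1897, 2139 and 1664 in DKO (-0.60, adjusted p = 0.485 in edgeR). *Runx1* had 1596 to 1769 normalized counts in WT and 2040 to 2193 in DKO (0.29, adjusted p = 0.579 in edgeR). These 4 of the 13 genes had groups that did not overlap, where 13.2% of all genes tested did. *Krt15* alone of the 4 was lower in DKO. Among 7 isthmus and infundibulum genes 0 were called, with 6 estimates above 0 and a median of 0.16, and *Gata6*, a factor of the upper follicle and sebaceous duct, had 0.51 with an adjusted p-value of 0.633 in edgeR. *Defb6*, a defensin, had 0.25 with an adjusted p-value of 0.944 in edgeR. Among 10 hair matrix genes 0 were called, 5 estimates were above 0 and 5 below, and the median was -0.04. *Wnt10b*, a Wnt ligand, and *Hoxc13*, a homeobox factor of the hair shaft, had the smallest p-values of that list, with -0.18 and -0.21 (adjusted p = 0.908 and 0.924 in edgeR).

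The sebaceous lineage differed from the follicle lists. Of its 12 genes 9 had estimates below 0, with a median of -0.87. In edgeR 7 had an unadjusted p-value under 0.05, all lower in DKO, where 7.5% of all genes did. Still 0 were called in edgeR, where 0.0694% of all genes were. *Scd1*, a fatty acid desaturase, and *Far2*, which makes fatty alcohols for wax esters, had log2 fold changes of -1.31 and -1.72 (adjusted p = 0.0617 and 0.068 in edgeR). With DESeq2, which called 0.828% of genes, *Scd1*, *Scd3*, *Far2*, *Elovl3* and *Dgat2l6* were called and were lower in DKO. These 5 act in the synthesis of sebum lipids. With the label number as a block *Scd1*, *Scd3* and *Far2* were called in edgeR. The transcription factors *Pparg* and *Myc* of the same list had log2 fold changes of 0.11 and 0.28 (adjusted p = 0.966 and 0.905 in edgeR), with DKO libraries on both sides of the WT range. *Pparg* had 430 to 552 normalized counts in WT and 734, 405 and 418 in DKO. *Myc* had 741 to 794 in WT and 631, 1302 and 861 in DKO. *Prdm1*, whose product is found in the sebaceous gland and also in the outer epidermis, had a 95% interval from -0.46 to 0.39. This interval lies above the estimates of the 5 genes that DESeq2 called. In basal keratinocytes all 7 estimates were above 0 with a median of 0.12, and *Itga6* and *Krt14*, the pair with the smallest p-values, had 0.25 and 0.39 (adjusted p = 0.760 and 0.819 in edgeR). Among 6 suprabasal genes 0 were called, 4 estimates were above 0 and 2 below, and the median was 0.39. The keratins *Krt1* and *Krt10*, the pair with the smallest p-values, had 0.79 and 0.48 (adjusted p = 0.202 and 0.352 in edgeR).

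**Figure D5:**
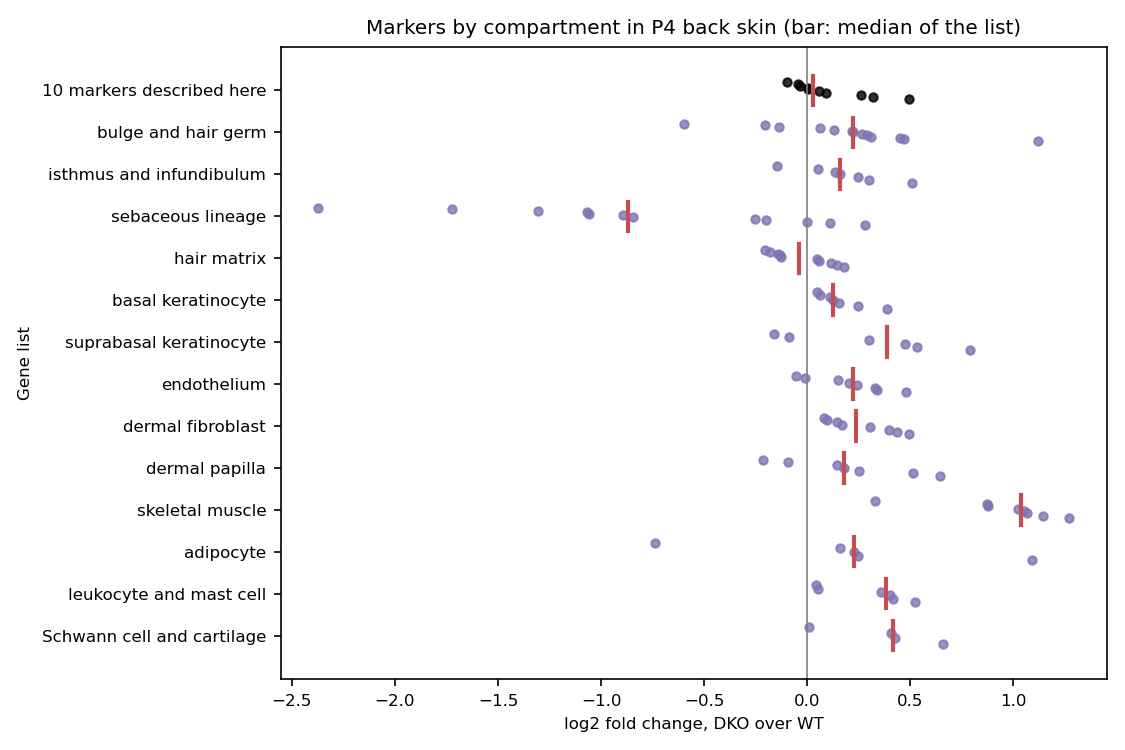
Log2 fold change of DKO over WT (x axis) for the 10 markers (black) and for the tested genes of 13 lists of follicle, sebaceous and other cell type markers (purple), with the median of each list as a red bar. The 10 markers lie between -0.10 and 0.49 with a median of 0.03, the sebaceous lineage has a median of -0.87 and skeletal muscle one of 1.04.

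Markers of other cell types in whole skin were counted in the same way. The 8 skeletal muscle genes all had estimates above 0, with a median of 1.04, and their summed level was 5186 to 6030.4 CPM in WT and 8118 to 17996 CPM in DKO. By p-value *Acta1* (1.14) and *Tnnt3* (1.07) came first, and *Ckm* had the highest log2 fold change, 1.27. In edgeR 0 were called, while DESeq2 called *Acta1*, *Ckm*, *Tnnt3*, *Neb* and *Ttn*. The medians were 0.24 for dermal fibroblasts, 0.22 for endothelium, 0.18 for the dermal papilla, 0.23 for adipocytes and 0.38 for leukocytes and mast cells. Smallest in p-value within these lists were *Pdgfra* and *Col3a1*, *Pecam1* and *Cldn5*, *Alx4* and *Sox18*, *Cfd* and *Lep*, and *Mcpt4* and *Csf1r*. Their log2 fold changes were 0.43 and 0.31, 0.34 and 0.48, 0.51 and 0.64, 1.09 and -0.74, and 0.52 and 0.42, with adjusted p-values from 0.333 (*Alx4*) to 0.852 (*Cldn5*) in edgeR. DESeq2 called *Cfd*, an adipocyte protease, with an adjusted p-value of 0.0397. Of 6 Schwann cell and cartilage genes 4 had enough counts, with a median of 0.42, and the cartilage genes *Col2a1* and *Col9a1* had at most 13.2 and 6.57 normalized counts in a library.

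For the 3 markers with the smallest p-values, the genes with the most similar levels over the 6 libraries were taken from 14576 genes with a mean normalized count of at least 50. *Lgr6* was followed most closely by *Ston1*, an endocytic adaptor, and *Ano1*, a calcium-activated chloride channel, with Pearson's r of 0.991 and 0.986. *Ano1* had means of 458 normalized counts in WT and 796 in DKO. *Nfatc1* was closest to *Pdgfb*, a growth factor made by endothelium, and *Inppl1*, an inositol phosphatase, with r of 0.996 for each. *Cd34* was closest to *Gucy1a2*, a subunit of soluble guanylate cyclase, and *Dpysl3*, a cytoskeletal protein, with r of 0.995 and 0.994. With 6 libraries and this many genes, coefficients of this size are a description of the samples.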

How the data were processed

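Full-thickness skin RNA was rRNA-depleted, made into NEBNext Ultra II libraries and read as 150 bp pairs. For trimming, mapping to GRCm38 and counting on genes the authors used Trimmomatic 0.36, STAR 2.5.2b and featureCounts of Subread 1.5.2. The deposited values are raw counts per gene. Strand and multi-mapping settings are not given in the sources used here. Groups follow the labelled tissue and genotype, with replicates numbered in sample order. The 7 epidermis libraries were not used, since all their counts are 0.

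In R 4.3.3, edgeR 4.0.16 was used with filterByExpr, TMM and the quasi-likelihood F test (Benjamini-Hochberg over 20168 genes), and DESeq2 1.42.0, named in the methods of the study, as an alternative. Normalized counts are counts over effective library size, times the mean effective size. Standard errors and 95% intervals come from the fold change, its F statistic and its degrees of freedom. A count of 3 equals 0.17 to 0.266 CPM, for counting error only. Log2 CPM had a prior count of 2. The study calls the controls littermates, and nothing else says how the mice relate, so p-values measure the spread between these mice.

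The 10 markers and the lists were chosen with earlier results of these data known. Named genes are the 10 markers, the called genes and the 2 with the smallest p in each list, and the 2 most correlated genes of 3 markers. *Krt15*, *Runx1*, *Postn*, *Foxc1*, *Cdh3*, *Barx2*, *Col1a1*, *Col1a2* and the other sebaceous, muscle and cartilage genes named were chosen after their values were seen. Alternatives were RLE factors, total counts, no filter, at least 10 counts per library, the number in the labels as a block, scaling without muscle genes or by basal keratinocyte genes, TPM for the order of levels, and each library left out. Results of a few genes are not reported here.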

Additional observations from a re-analysis of the deposited data

How the results depend on the processing

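No marker was called under any of the 15 alternatives. The estimates lay between -0.28 and 0.55, short of the log2 fold change of 1 that a call needs, so the p-values did not decide this. The lowest adjusted p-value of a marker was 0.130, that of *Lgr6* in DESeq2 with the label number as a block. Of 150 refitted log2 fold changes 117 kept their sign. *Lgr6*, *Lhx2* and *Nfatc1* kept it in all 15. The other sign changes were in estimates near 0 or came with 1 library left out. *Lgr5*, at 0.0027, was -0.0086 with DESeq2, -0.0046 with DESeq2 and the block (added after seeing the data), -0.0071 with RLE factors, -0.030 with total counts, -0.019 with no filter, -0.0080 with at least 10 counts, -0.0099 without muscle genes and -0.11 scaled by basal keratinocyte genes. *Trp63*, at 0.0052, was in the same order -0.0064, -0.015, -0.0057, -0.034, -0.018, -0.0078, -0.010 and -0.14, and -0.0029 with the replicate block. Scaling by basal keratinocyte genes also turned *Lrig1* (-0.053) and *Tbx1* (-0.14) and left 3 markers above 0 in place of 7. With 1 library left out the log2 fold changes ran from -0.063 to 0.074 for *Lgr5*, -0.072 to 0.10 for *Trp63*, -0.28 to 0.12 for *Sox9*, -0.0030 to 0.48 for *Cd34*, -0.18 to 0.20 for *Tbx1* and -0.19 to 0.14 for *Prdm1*.

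The number of all genes called, 14, was 149 with DESeq2 with or without the block, 22 with total counts, 210 with no filter and 35 with the block in edgeR, and ran from 2 to 36 with 1 library left out (3, 2 and 2 without WT replicates 1, 2 and 3, and 36, 33 and 4 without DKO replicates 1, 2 and 3). Companion genes called, 0, were 11 with DESeq2, 8 with DESeq2 and the block, 11 with no filter, 4 with the block in edgeR, 1 with RLE factors and 2 each with total counts, without muscle genes and scaled by basal keratinocyte genes, and 0 to 5 with 1 library left out (3 without DKO replicate 1, 5 without DKO replicate 2). Markers whose ratio to basal keratinocyte genes did not overlap, 1, ran from 1 to 5 with 1 library left out, with 3 without WT replicate 3, 2 without DKO replicate 1 or 2 and 5 without DKO replicate 3. The share of all genes tested without overlap, 11.9%, then ran from 15.2% to 29.9%, and was 18.7% without WT replicate 3, 29.9% and 26.1% without DKO replicates 1 and 2 and 19.2% without DKO replicate 3. The cause of these changes was not tested. All 10 markers kept their WT rank per length with TPM, and 8 their DKO rank. The labels do not say what the shared number marks. Deviations of same-numbered mice from their group means correlated at -0.019 to 0.23 and those of other pairs at -0.15 to -0.10. Deviations within a group sum to 0, so positive values for some pairs bring negative ones for others, and the contrast decides nothing. The block changed no marker's call.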
